A study of Mus musculus with 21 samples.

Results

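Transcripts of the insulin and IGF1 signalling pathway were followed from receptor to transcription factor in hypothalamic neurons that respond to energy deficit. The 9 genes were chosen by symbol from the table of 35266 genes, and all 9 passed the filter on low counts that left 16513 genes for testing. They encode the insulin receptor (Insr), the IGF1 receptor (Igf1r), the adaptor proteins Irs1, Irs2 and Irs4, the kinase Akt1 and the transcription factors Foxo1, Foxo3 and Foxo4.

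RNA-Seq was performed on AGRP and POMC neurons of the hypothalamic arcuate nucleus, sorted by hand from 21 male mice, with 1 mouse per library. AGRP neurons came from the NPY-hrGFP strain (fed, n = 5 mice; food-deprived, FD, n = 6 mice) and POMC neurons from the Pomc-GFP strain (fed, n = 5 mice; FD, n = 5 mice), both on the C57BL/6J background. Mice were at postnatal day 46 to 56 and had been moved to a clean cage 24 hr earlier, where fed mice had free access to food and FD mice had water alone. In the AGRP groups the fluorophore was driven by Npy and not by Agrp, so those cells were picked by Npy activity, and the cell type contrast is also a contrast of 2 transgenic strains. FD mice lost weight, by 19.4% ± 1.75 (SD, n = 3 weighed mice) in the AGRP group and 17.7% ± 1.64 (SD, n = 5) in the POMC group.

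Insulin and IGF1 bind receptor tyrosine kinases, which phosphorylate IRS adaptor proteins and thereby recruit PI3K. The lipid signal made by PI3K activates AKT, and AKT phosphorylates FOXO factors so that they leave the nucleus. When insulin falls, as in fasting, FOXO proteins return to the nucleus and act on their target genes. In AGRP neurons FOXO1 is known as an activator of Agrp, and in POMC neurons as a repressor of Pomc. Transcript levels do not show phosphorylation, so none of the values below measures the activity of the pathway.

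Libraries held 9822298 to 37663979 gene counts (median 19189780), from 44 to 214 sorted cells, and 3 counts corresponded to 0.0797 to 0.305 CPM (counts scaled to the library total). Labelled cell types were matched by their markers. Agrp was at 3455 TPM (a level per length of transcript, scaled to the same sum in every library) in fed AGRP neurons and 15.5 TPM in fed POMC neurons, and Pomc was at 43.5 and 16029 TPM. The sum of 24 markers of astrocytes, oligodendrocytes, microglia, vascular cells and tanycytes was 72.7 to 93.7 TPM in fed and 60.3 to 84.2 TPM in FD AGRP libraries, and 61.0 to 113 and 57.5 to 94.6 TPM in fed and FD POMC libraries, with 3 or 4 of the markers at 0 in every library of a group. The astrocyte marker Aldh1l1 was itself called in AGRP neurons, averaging 1.69 TPM in deprived mice against 0.0258 TPM in controls. The other astrocyte markers averaged lower in deprived mice, namely Slc1a2 (17.2 against 24.0 TPM), Gfap (1.03 against 1.64), Aqp4 (0.518 against 0.885) and Gja1 (0.490 against 1.17). The mean sum of the astrocyte markers was 20.9 TPM in FD and 27.7 TPM in fed AGRP libraries. Sst, listed here among markers of other arcuate neurons, was at 1404 TPM in fed AGRP and 80.0 TPM in fed POMC libraries. It was at 440 TPM or more in every FD AGRP library, while the others on that list averaged at most 4.76 TPM (Th) in fed AGRP libraries. Whether Sst came from the AGRP neurons themselves, and its part in the cell type differences, was not tested. Spike-in RNA was added as 1 µl (8 libraries), as 10 µl (6 libraries) or in proportion to the cells sorted (7 libraries). Among POMC libraries the 10 µl set held FD mice only and the set by cell number fed mice only. The POMC mice of postnatal day 51 were all fed. The mice of postnatal day 46 and 47 were all of the AGRP groups (2 fed and 3 FD). In the cell type contrasts and the interaction they had no POMC counterpart of like age. In these pooled cells, fewer cells with a transcript and less transcript per cell cannot be told apart.

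The upstream sequences of the 3 adaptor genes are shown because 1 element recurred in them. RefSeq sequence (GRCm38.p6) was found for 7 of the 9 genes, all but Insr and Foxo4, and the 250 bases before each transcription start were searched on both strands. The letters searched were TGTTTAC (the core bound by FOXO factors), TGTTTTG (the core of the insulin response element, also a FOXO site), CACGTG (E-box) and TGACGTCA (cAMP response element). Matches are in capitals, and all 3 genes lie on the minus strand.

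Irs1 (chr1:82291440-82291689, minus strand): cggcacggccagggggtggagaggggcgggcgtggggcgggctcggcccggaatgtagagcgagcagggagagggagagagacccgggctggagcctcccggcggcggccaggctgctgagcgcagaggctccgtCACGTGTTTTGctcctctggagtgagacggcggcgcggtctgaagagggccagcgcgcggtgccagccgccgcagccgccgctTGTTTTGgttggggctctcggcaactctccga
Irs2 (chr8:11008930-11009179, minus strand): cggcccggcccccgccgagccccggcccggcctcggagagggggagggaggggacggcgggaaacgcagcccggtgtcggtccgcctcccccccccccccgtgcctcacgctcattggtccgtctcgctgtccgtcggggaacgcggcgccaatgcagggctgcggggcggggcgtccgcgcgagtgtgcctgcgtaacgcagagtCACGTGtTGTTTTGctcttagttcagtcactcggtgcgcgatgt
Irs4 (chrX:141725264-141725467, minus strand; the last 46 bases, which lie inside the gene as the count table places it, are left off): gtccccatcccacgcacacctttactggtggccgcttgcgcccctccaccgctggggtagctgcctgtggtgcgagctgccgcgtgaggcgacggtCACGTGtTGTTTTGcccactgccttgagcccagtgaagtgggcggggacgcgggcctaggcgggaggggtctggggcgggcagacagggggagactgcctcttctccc

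Each of the 3 windows held an E-box and an insulin response core side by side. In Irs2 the E-box began 44 bases before the start and the core 37 bases before it, with a single T between them, and in Irs4 the same letters began 154 and 147 bases before the start. In Irs1 the E-box, 115 bases before the start, shared 2 bases with a core at 111, and a second core lay 32 bases before the start. Among 32851 promoter windows of 250 bases, 6.02% held CACGTG, 5.56% held TGTTTTG and 97 (0.295%) held both. The windows of Irs1, Irs2 and Irs4 were 72.4%, 72.8% and 69.2% G or C, against a median of 52.4% over all windows. They held 28, 34 and 17 CG pairs, against a median of 6. CACGTG contains such a pair, and the shares were not matched for composition. The joined run of E-box, T and core stood in 2 windows, those of Irs2 and Irs4, and this run was chosen for counting after the matches had been seen. TGTTTAC, present in 3.17% of windows, was found in 1 of the 2 windows listed for Akt1, 161 bases before the start, and the windows of Foxo1, Foxo3 and Igf1r held none of the 4 motifs. These are matches of letters and show no binding. Irs2 and Irs4, which share the run, differed in response, as described next.

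The 9 transcripts covered a wide range of levels, and Irs4 stood far above the rest in each group (plot of TPM by library). Irs4 encodes an adaptor of the IRS family that is prominent in the hypothalamus. Its mean was 1464 TPM in fed AGRP neurons, where it ranked 43 among the means of 35266 genes, and 623 TPM in FD POMC neurons. Irs4 made up 95.2% of the summed TPM of Irs1, Irs2 and Irs4 in fed AGRP neurons and 95.1% in fed POMC neurons. The order below Irs4 depended on the cell type. In fed AGRP neurons it ran Foxo1 (130 TPM), Irs2 (65.5), Insr (64.8), Akt1 (36.5), Foxo3 (24.1), Foxo4 (24.0), Irs1 (7.26) and Igf1r (3.19), where the library ranges of Irs2 and Insr overlapped, as did those of Foxo3 and Foxo4. In fed POMC neurons it ran Insr (49.4 TPM), Irs2 (41.1), Akt1 (39.4), Igf1r (11.8), Foxo3 (11.1), Foxo1 (10.5), Irs1 (5.58) and Foxo4 (1.64), and the ranges of all neighbours overlapped but those of Akt1 and Igf1r. Foxo1 thus came directly after Irs4 in fed AGRP neurons and near the end of the order in fed POMC neurons.

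**Figure D1:**
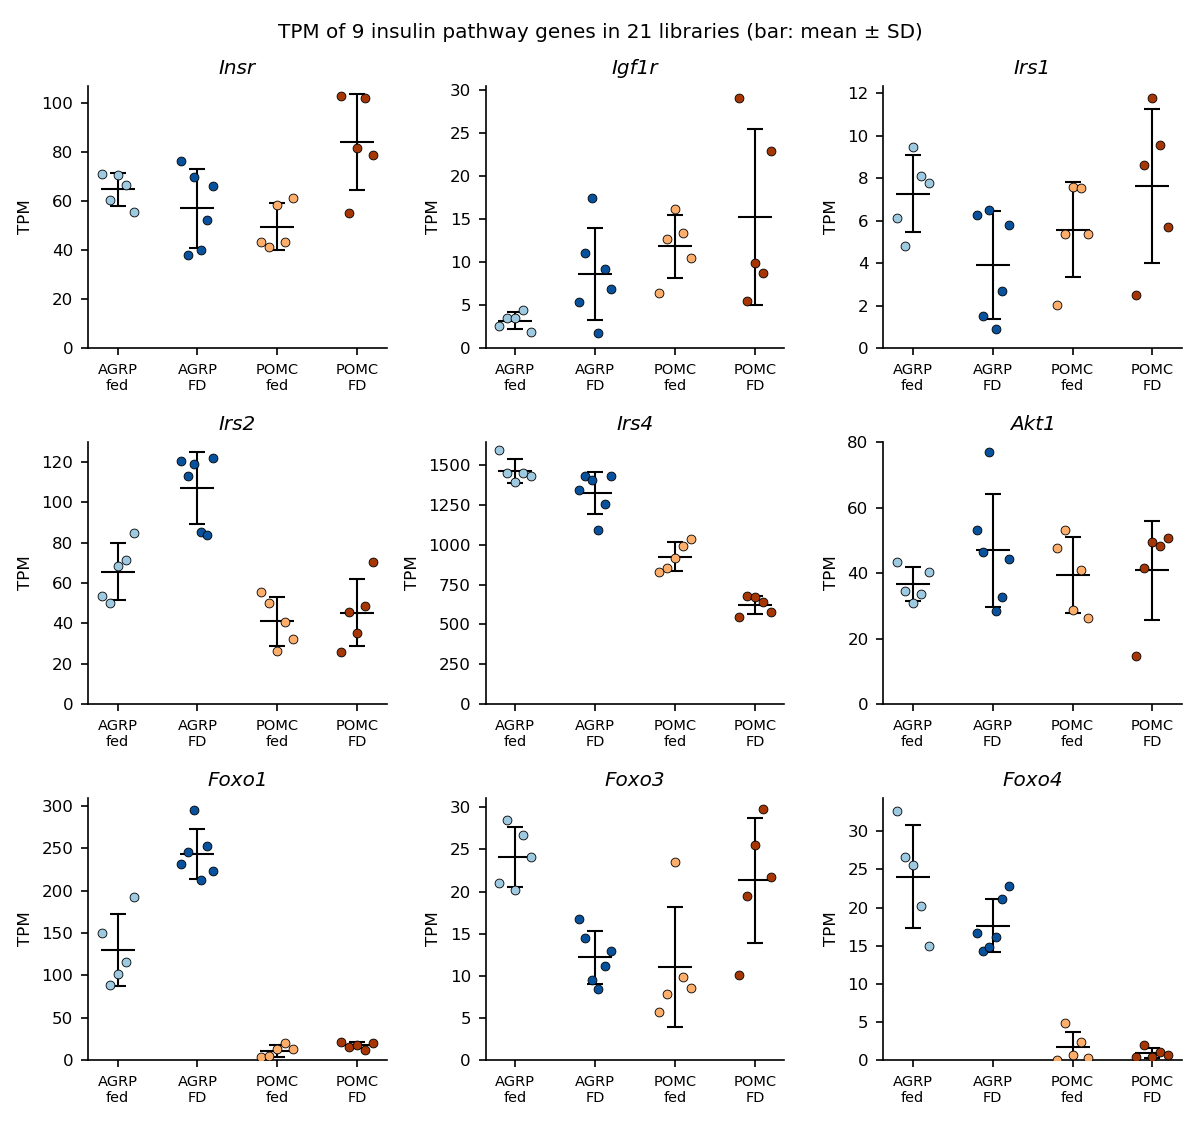
TPM (vertical axis, linear, from 0, a separate scale per gene) of the 9 genes in the 21 libraries, 1 point per mouse, grouped by neuron type and feeding state, with mean ± SD as bars. Foxo1 and Foxo4 points of AGRP neurons all lie above those of POMC neurons, and the 5 FD POMC points of Irs4 (548 to 681 TPM) lie below the 5 fed POMC points (826 to 1039 TPM).

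To determine how food deprivation acted on the pathway in AGRP neurons, FD and fed libraries were compared. Foxo1, Irs2 and Igf1r rose, and the other 6 did not pass the test. A q under 0.05 (Benjamini-Hochberg adjusted p of edgeR's quasi-likelihood test over the 16513 genes) was reached by 10.3% of all genes and, with a rise, by 5.87%. The median log2 fold change was 0.10 over the 9 genes and -0.02 over all genes tested.

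Foxo1, the FOXO factor that carries insulin signals to neuropeptide genes, was at 88.3, 102, 115, 150 and 193 TPM in the fed AGRP libraries. In the FD AGRP libraries it ranged from 212 to 295 TPM with a median of 238 TPM. The groups did not overlap, as was the case with a rise for 2.29% of tested genes. Foxo1 rose 2.24-fold (log2 fold change 1.16 ± 0.27 SE, q = 0.00511). The rise was seen within each spike-in set, with log2 ratios of the mean normalized CPM of 1.05, 1.47 and 0.96 in the 1 µl, 10 µl and cell-number sets. In that order the sets held 1, 2 and 3 FD mice and 1, 2 and 2 fed mice. The 1 µl ratio is thus of 1 mouse to 1 mouse. With counts scaled to spike-in RNA per sorted cell the difference was of like size (0.95) but no longer passed the test (q = 1.00).

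Irs2, the adaptor through which insulin acts in many tissues, was at 49.9, 53.5, 68.4, 71.2 and 84.8 TPM in fed AGRP libraries. In FD AGRP libraries it ranged from 83.8 to 122 TPM with a median of 116 TPM. Apart from the highest fed and the lowest FD library the groups were separate. Irs2 rose 1.93-fold (log2 fold change 0.95 ± 0.24 SE, q = 0.00999), and the log2 ratio within the 3 spike-in sets was 0.95, 1.06 and 0.80. These sets held the same few mice as for Foxo1, with 1 mouse per state in the 1 µl set. Under the spike-in scaling it was 0.82 (q = 1.00).

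Igf1r, the receptor for IGF1, was low, at 1.91, 2.55, 3.53, 3.53 and 4.45 TPM in fed AGRP libraries. Its FD AGRP libraries ranged from 1.73 to 17.4 TPM with a median of 8.03 TPM. FD libraries thus spread widely, and the lowest of all 11 AGRP libraries was an FD library. Igf1r rose 3.17-fold (log2 fold change 1.66 ± 0.49 SE, q = 0.0273), on 46 to 118 counts per fed library and 100 to 427 counts per FD library. This call was lost with limma-voom (q = 0.262), on log2(TPM + 1) values (q = 0.175), with the age cohort, the spike-in set, the replicate number or the number of sorted cells in the model or the 2 AGRP groups fitted alone (q = 0.0524 to 0.0796), with spike-in scaling (q = 0.476), and without fed replicate 1, 3 or 5 or FD replicate 2 or 3 (q = 0.0533 to 0.0876). In the 10 µl set alone, with 2 mice per state, the log2 ratio was 0.43 and the 2 groups overlapped.

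Foxo3, a FOXO factor with broad expression, was at 20.2, 20.96, 24.1, 26.7 and 28.5 TPM in fed AGRP libraries and ranged from 8.42 to 16.7 TPM (median 12.025) in FD libraries. In TPM the groups did not overlap, with FD lower, as for 5.68% of tested genes. On normalized counts the log2 fold change was -0.76 ± 0.29 SE and did not pass (q = 0.108). It passed with the 2 AGRP groups fitted alone (-0.76, q = 0.0410), and on log2(TPM + 1), where the median of all genes was -0.28, it was -0.95 (q = 0.0631). The remaining members gave log2 fold changes of 0.60 ± 0.31 SE for Akt1 (q = 0.256), -0.70 ± 0.44 for Irs1 (q = 0.382), 0.10 ± 0.09 for Irs4 (q = 0.577), -0.20 ± 0.63 for Foxo4 (q = 0.903) and 0.04 ± 0.17 for Insr (q = 0.926). For Insr the 95% interval of the log2 fold change was -0.29 to 0.37 (normal approximation, as for the intervals given further on).

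**Figure D2:**
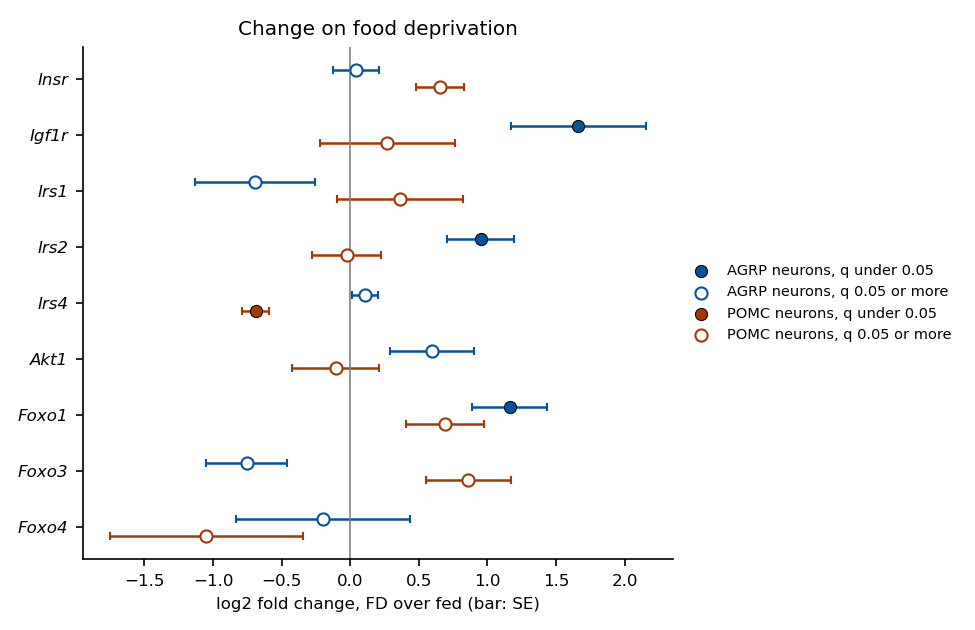
Log2 fold change of FD over fed (horizontal axis, bars are SE) for the 9 genes in AGRP neurons (blue) and POMC neurons (brown), from 1 edgeR model of all 21 libraries; filled points have q under 0.05. Filled are Foxo1 (1.16), Irs2 (0.95) and Igf1r (1.66) in AGRP neurons and Irs4 (-0.69) in POMC neurons.

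In POMC neurons the test called another member. Irs4 fell, and the other 8 genes did not pass the test, where 0.375% of all genes did. Fed POMC libraries held Irs4 at 826, 854, 917, 995 and 1039 TPM. FD POMC libraries held it at 548, 578, 640, 669 and 681 TPM. The groups did not overlap, as with a fall for 0.848% of tested genes. The fall was to 0.620 of the fed level (log2 fold change -0.69 ± 0.10 SE, q = 0.000230), on 12095 to 51208 Irs4 counts per POMC library. Within the 1 µl set, which held 3 mice of each state, the log2 ratio was -0.65 with no overlap. Scaled to spike-in RNA per sorted cell, the median of all genes shifted by -1.11 in this contrast. The 10 µl POMC libraries were all FD and the cell-number POMC libraries all fed. This shift thus cannot be told apart from the spike-in set. On that scale Irs4 was at -1.78 (q = 0.327), or -0.67 relative to the median gene.

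Insr was at 41.1, 43.1, 43.4, 58.2 and 61.4 TPM in fed POMC libraries and at 55.2, 78.6, 81.5, 102 and 103 TPM in FD POMC libraries. All but 1 of the FD libraries lay above every fed library. The log2 fold change of 0.66 ± 0.18 SE missed the threshold (q = 0.0836), and passed it with DESeq2 (q = 0.0178) and without FD replicate 2 (q = 0.0316). On the spike-in scale it turned to -0.50, or 0.61 relative to the median gene. Foxo3 was at 5.67, 7.80, 8.52, 9.82 and 23.5 TPM in fed and at 10.1, 19.5, 21.7, 25.6 and 29.8 TPM in FD POMC libraries. One fed library, replicate 3, lay among the FD values. The log2 fold change was 0.86 ± 0.31 SE (q = 0.212), and 1.29 without that library (q = 0.0354). Foxo1 gave 0.69 ± 0.28 SE (q = 0.293), Igf1r 0.27 ± 0.49 (q = 0.898), Irs1 0.36 ± 0.46 (q = 0.833), Irs2 -0.03 ± 0.25 (q = 0.987), Akt1 -0.11 ± 0.32 (q = 0.946) and Foxo4, at under 5 TPM in each POMC library, -1.05 ± 0.70 (q = 0.595). Within the 1 µl set the log2 ratio was 0.55 for Insr, 0.38 for Foxo3 and 0.29 for Foxo1, each with overlap of fed and FD libraries.

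Whether deprivation acted differently on the 2 neuron types was tested by the interaction term, the AGRP change less the POMC change. Irs4 and Foxo3 passed among the 9 genes, against 6.71% of all genes. For Irs4 the term was 0.79 ± 0.14 SE (q = 0.000362), from a change of 0.10 in AGRP and -0.69 in POMC neurons. On log2(TPM + 1) values it was 0.42 and did not pass (q = 0.113). For Foxo3 it was -1.62 ± 0.43 SE (q = 0.0189), from -0.76 in AGRP and 0.86 in POMC neurons, neither of which passed by itself in the model of all 4 groups. It stayed under 0.05 without any single library (q = 0.00118 to 0.0442) and was lost under spike-in scaling (q = 0.785). Foxo1, which passed in AGRP and not in POMC neurons, did not differ detectably between them in its change (0.47 ± 0.39 SE, q = 0.555; unadjusted 95% interval -0.29 to 1.23). The same held for Igf1r (1.39 ± 0.69 SE, q = 0.257; unadjusted 95% interval 0.042 to 2.74) and Irs2 (0.98 ± 0.35 SE, q = 0.0899), the latter passing without POMC fed replicate 3 (q = 0.0421) or POMC FD replicate 5 (q = 0.0315). For Insr the term was -0.61 ± 0.24 SE (q = 0.135), and on log2(TPM + 1) values it was -0.96 and passed (q = 0.0484).

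AGRP and POMC neurons of fed mice were then compared to see where the pathway itself differs between the cell types, with the same fed libraries as above. Of the 9 genes, 4 were higher in AGRP neurons (Foxo1, Foxo4, Foxo3 and Irs4), 1 was lower (Igf1r) and 4 did not pass (Insr, Irs1, Irs2 and Akt1), where 7.57% of all genes passed.

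Foxo1 was at 3.03, 4.52, 12.6, 12.6 and 19.7 TPM in fed POMC libraries. All lay far below the lowest fed AGRP library, at 88.3 TPM. The difference was 11.3-fold (log2 fold change 3.50 ± 0.31 SE, q = 1.11e-09). Foxo4 was at 14.96, 20.2, 25.6, 26.7 and 32.7 TPM in fed AGRP libraries and at 0, 0.328, 0.704, 2.31 and 4.88 TPM in fed POMC libraries. The groups were again separate, with a 12.4-fold difference (log2 fold change 3.63 ± 0.74 SE, q = 0.00117). Irs4 was 1.39-fold higher in AGRP neurons (0.48 ± 0.10 SE, q = 0.00140), with no overlap of the libraries. Foxo3 was 1.97-fold higher but close to the threshold (0.98 ± 0.31 SE, q = 0.0493), and did not pass on leaving out any one of 9 of the 10 libraries (q = 0.0586 to 0.137). Without POMC fed replicate 3 it was 1.41 (q = 0.00178). The call was also lost with the age cohort (0.86, q = 0.116), the spike-in set (0.95, q = 0.0928) or the number of sorted cells (0.93, q = 0.103) in the model, with the 2 fed groups alone (q = 0.0608), without the count filter (q = 0.0576) and with spike-in scaling (q = 1.00). Igf1r was lower in AGRP neurons, where no library exceeded 4.45 TPM, than in POMC neurons, at 6.41, 10.4, 12.6, 13.4 and 16.2 TPM. The difference in log2 fold change was -2.05 ± 0.51 SE (q = 0.00921), and the groups did not overlap. Spike-in scaling also lost the edgeR calls of Foxo4 (3.16, q = 0.0800), Igf1r (-2.06, q = 0.511) and Irs4 (0.55), and kept that of Foxo1 (4.19, q = 0.000443). In all, 4 of the 9 genes had separate TPM ranges, as had 9.05% of tested genes.

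Under food deprivation the cell types differed in 4 of the 9 genes, against 18.6% of all genes, and each of the 4 was higher in AGRP neurons with no overlap of TPM, a separation shown by 11.8% of tested genes. This comparison uses the FD libraries described above, so its values are not independent of theirs. Foxo1 was 15.7-fold higher (log2 fold change 3.97 ± 0.31 SE, q = 5.93e-11). Foxo4, at 14.3 to 22.8 TPM in AGRP and 0.389 to 1.95 TPM in POMC libraries, was 22.3-fold higher (4.48 ± 0.77, q = 6.49e-05). Irs4 was 2.42-fold higher (1.27 ± 0.10, q = 3.77e-11) and Irs2 2.68-fold higher (1.42 ± 0.25, q = 7.47e-05). These 4 also passed with spike-in scaling (q from 4.53e-06 to 0.0421), under which the median of all genes shifted by 1.10 in the same direction. Among FD mice the cell-number set held AGRP libraries only, so this shift cannot be told apart from the spike-in set. Relative to the median gene on that scale, Irs2 was at 1.66, Irs4 at 1.31, Foxo1 at 4.07 and Foxo4 at 4.31. Insr (-0.40 ± 0.17, q = 0.0945, and -0.53 with q = 0.0260 without POMC FD replicate 2), Foxo3 (-0.64 ± 0.30, q = 0.140), Irs1 (-0.84 ± 0.44, q = 0.201), Igf1r (-0.66 ± 0.47, q = 0.373) and Akt1 (0.37 ± 0.31, q = 0.456) did not pass.

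**Figure D3:**
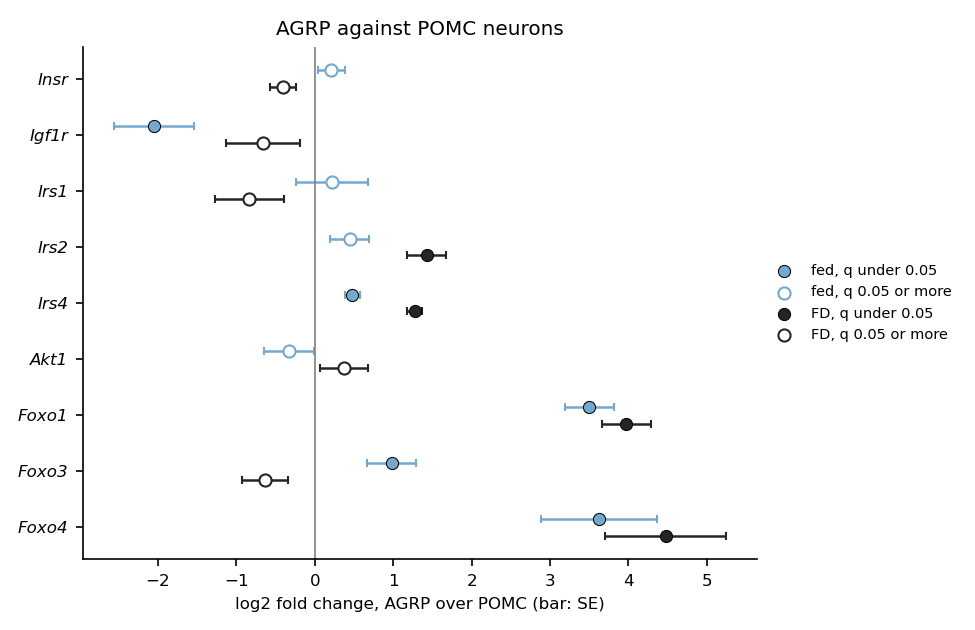
Log2 fold change of AGRP over POMC neurons (horizontal axis, bars are SE) for the 9 genes in fed mice (blue) and FD mice (black); filled points have q under 0.05. Foxo1 (3.50 fed, 3.97 FD) and Foxo4 (3.63 fed, 4.48 FD) lie far to the right in both states, and Igf1r (-2.05) is filled in fed mice only.

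Shares within a gene family were computed for each library, since they do not depend on scaling between libraries. In AGRP neurons Foxo1 took 71.2% ± 7.995 (SD, n = 5) of the summed TPM of Foxo1, Foxo3, Foxo4 and Foxo6 in fed mice and 88.8% ± 2.13 (n = 6) in FD mice. The lowest FD library (86.0%) was above the highest fed library (82.9%), and the exact two-sided permutation p was 0.00216, the smallest that 462 splits allow, or 0.00866 after adjustment over 12 tests. The sum itself went from 179 ± 38.4 TPM to 274 ± 28.01 TPM. In POMC neurons the family sum was 24.8 ± 11.4 TPM in fed and 41.3 ± 6.06 TPM in FD mice, and Foxo3 held 44.4% of it in fed and 50.5% in FD mice. There the Foxo1 share was 39.9% ± 16.3 in fed and 43.8% ± 14.4 in FD mice, with overlapping libraries (exact permutation, adjusted p = 0.789). The fed AGRP and POMC shares of Foxo1 differed (exact permutation, adjusted p = 0.0190), a call lost on leaving out any one of the 5 fed AGRP libraries (exact permutation, adjusted p = 0.0571 to 0.0762). FOXO transcripts were thus mainly Foxo1 in AGRP neurons and divided between Foxo1 and Foxo3 in POMC neurons.

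The Irs2 share of the summed TPM of Irs1, Irs2 and Irs4 rose in AGRP neurons from 4.28% ± 0.990 (SD, n = 5) to 7.42% ± 0.680 (n = 6), again with no overlap (exact permutation, adjusted p = 0.00866). In POMC neurons it was 4.30% ± 1.55 in fed and 6.67% ± 2.48 in FD mice (exact permutation, adjusted p = 0.177), where the Irs4 level in the denominator fell. Insr made up 95.3% ± 1.27 of the summed receptor TPM in fed AGRP neurons and 80.7% ± 5.18 in fed POMC neurons (exact permutation, adjusted p = 0.0190). In FD mice the Insr shares were 87.1% ± 7.41 and 85.5% ± 7.25 (exact permutation, adjusted p = 0.789). The change from 95.3% to 87.1% in AGRP neurons had an adjusted p of 0.0779 by the exact permutation test, and of 0.0159 without FD replicate 4.

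**Figure D4:**
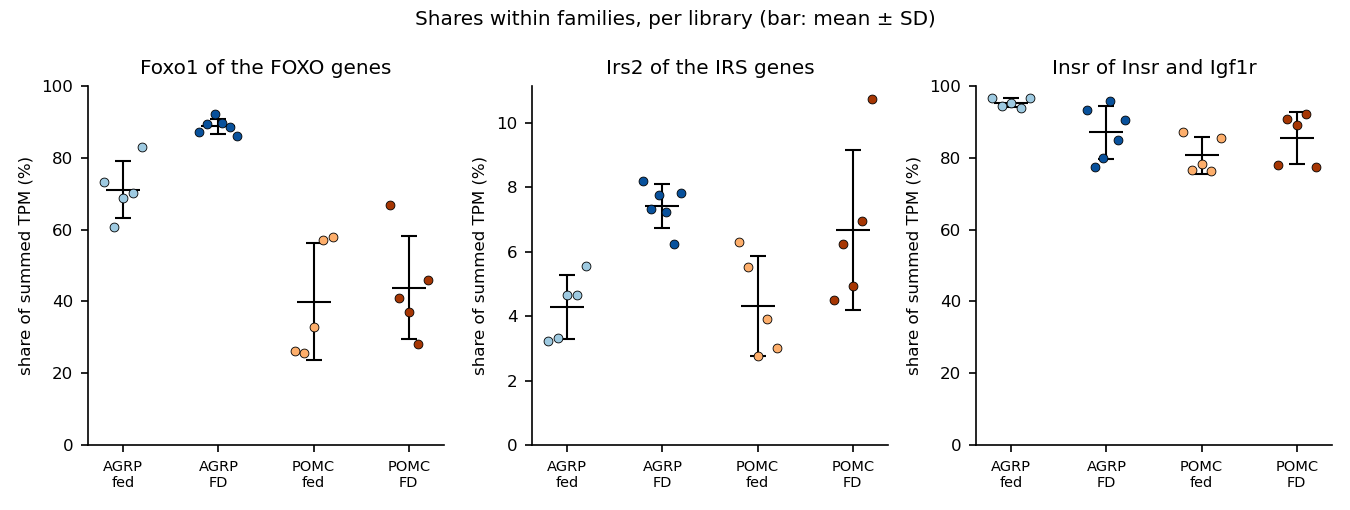
Share of the summed TPM of its family, in percent (vertical axis, from 0), taken in each of 21 libraries by Foxo1 (left), Irs2 (middle) and Insr (right), 1 point per mouse, with mean ± SD as bars. In AGRP neurons the Foxo1 share is higher in all FD libraries (86.0% or more) than in any fed library (82.9% or less), and POMC libraries spread from 25.7% to 66.9%.

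Other genes of the pathway were counted from 7 lists holding 119 genes, of which 102 were tested. In AGRP neurons 11 rose and 5 fell on deprivation, 15.7% of those tested, beside 10.3% of all genes, and the median log2 fold change was 0.14. Without fed replicate 1 the calls fell from 16 to 10. In POMC neurons edgeR called 0 of 102 at q under 0.05, beside 0.375% of all genes by the same rule. DESeq2 called 7, and edgeR at an unadjusted p under 0.05 gave 14. No share of all genes was taken for DESeq2 or for the unadjusted p. The counts of 7 and 14 thus have no background and do not show a response of the lists. Ligands were scarcely present in either cell type. Ins1 was at 0 in all libraries, and Ins2 and Igf2 did not pass the count filter, reaching 19 counts and 1 count in their highest library.

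Around the receptor, none of 18 tested adaptors and regulators was called in AGRP neurons. Among the genes of PI3K and its partners Pik3r1, the regulatory subunit p85 alpha that binds IRS proteins, went from 38.5 ± 15.2 TPM (SD) to 79.7 ± 25.5 TPM (log2 fold change 1.29 ± 0.23 SE, q = 0.000342). Of 15 genes of AKT, SGK and their partners 3 rose and 0 fell. Sgk1, a kinase that shares targets with AKT, was at 16.1 to 28.3 TPM in fed and 82.2 to 127 TPM in FD libraries, a separate range (log2 fold change 2.51 ± 0.42 SE, q = 0.000133). Trib1, a pseudokinase (2.26, q = 0.00648), and Tbc1d4, an AKT substrate in glucose transport (1.35, q = 0.0131), also rose.

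Of 27 tested FOXO target genes 4 rose and 3 fell in AGRP neurons. The median log2 fold change was -0.18, with 12 genes above 0 and 15 below. The list was not divided by whether FOXO activates or represses a gene. These counts thus do not show whether the targets moved together in the direction of FOXO action. Cdkn1a, the cell cycle inhibitor p21, rose from 1.44 to 30.4 TPM in fed libraries to 326 to 783 TPM in FD libraries (log2 fold change 6.36 ± 0.69 SE, q = 1.79e-07). Gadd45a, a stress gene (2.91, q = 0.00227), Cited2 (1.65, q = 0.00170) and Cpe, which processes neuropeptide precursors (1.25, q = 0.00145), rose as well. Sod2, a mitochondrial antioxidant enzyme, fell by 0.89 (q = 0.0223), and the cell cycle genes Cdkn1b (-1.08, q = 0.0291) and Ccnd1 (-1.59, q = 0.0439) also fell. Cdkn1b, Ccnd1, Ddit4 and Igfbp3 lie outside the rule for named genes and were named after their values were seen, to complete the counts. Of 16 mTOR genes 1 rose, the mTOR inhibitor Ddit4 (1.16, q = 0.0449), and 1 fell, Deptor, an inhibitor within mTOR complexes (-0.63, q = 0.0269). Of 12 FOXO modifiers Ywhaz, a 14-3-3 protein that binds phosphorylated FOXO, was the single call (0.54 ± 0.12 SE, q = 0.00297), and of 5 tested ligand and binding protein genes Igfbp3 rose (3.42 ± 1.03 SE, q = 0.0293).

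**Figure D5:**
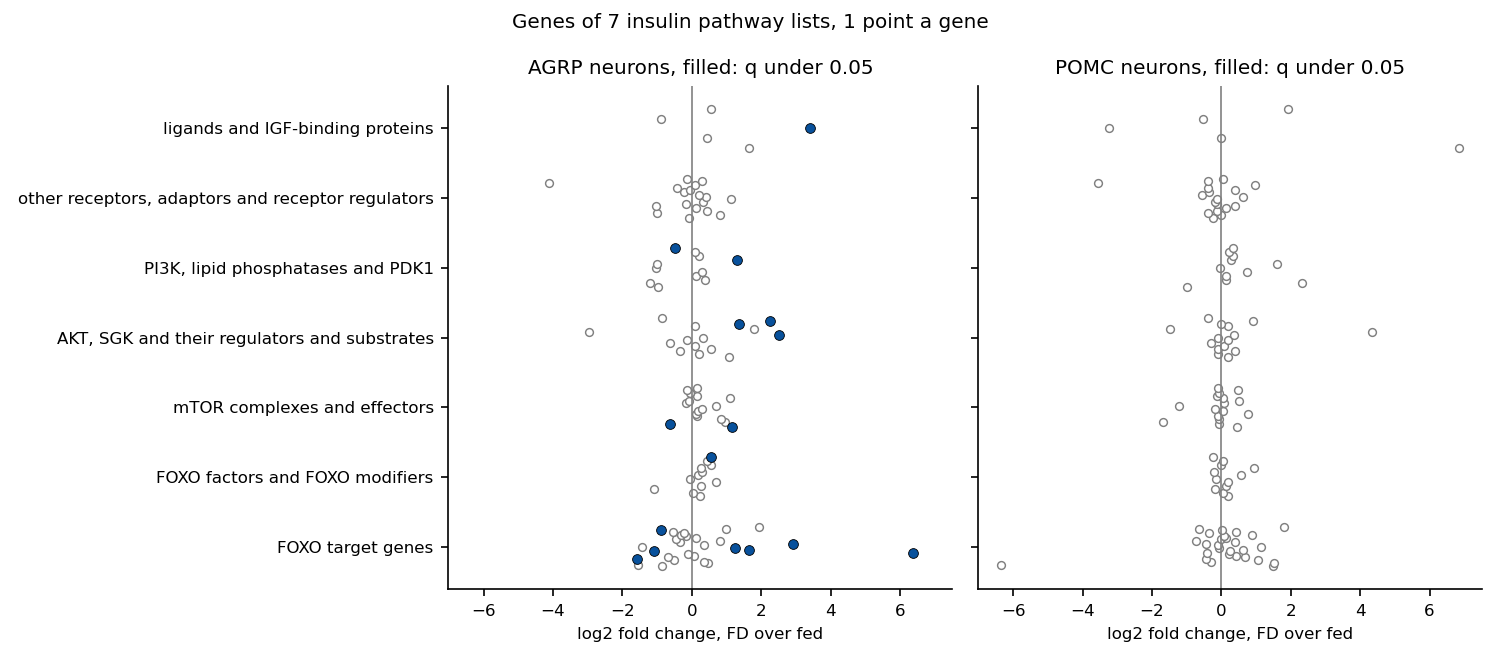
Log2 fold change of FD over fed (horizontal axis) for each tested gene of 7 pathway lists (rows, 1 point per gene; a gene on 2 lists appears in both) in AGRP neurons (left) and POMC neurons (right); filled points have q under 0.05. AGRP neurons show 16 genes called and POMC neurons 0, and the point farthest right among the FOXO targets is Cdkn1a (6.36).

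Between the cell types, 5 of the 102 list genes were higher and 6 lower in AGRP than in POMC neurons of fed mice (10.8%, beside 7.57% of all genes), with a median log2 fold change of 0.10. The adaptor Gab2 (-1.20 ± 0.23 SE, q = 0.000610) and the PI3K subunits Pik3r3 (-0.88, q = 0.00277) and Pik3r1 (-0.82, q = 0.0282) were lower in AGRP neurons. Pik3ip1, an inhibitor of PI3K, was higher (1.90, q = 0.00382). Enpp1, which binds and restrains the insulin receptor, was at 0.192 to 6.04 TPM in AGRP and 8.82 to 12.3 TPM in POMC libraries (-2.83, q = 0.0288). Igf1 and Igfbp2 were at 0 in all 5 fed POMC libraries and averaged 0.242 and 1.37 TPM in fed AGRP neurons, so no fold is given. None is given either for Inppl1, a lipid phosphatase with at most 3 counts in fed POMC libraries, at a mean of 1.86 TPM in fed AGRP neurons. Of the FOXO targets, Cpe (-1.06, q = 0.00856) and Cdkn1a (-1.91, q = 0.0391) were lower and Ccnd2, a cyclin (1.76, q = 0.0414), was higher in AGRP neurons.

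In FD mice 16 of 102 list genes were higher and 7 lower in AGRP neurons (22.5%, beside 18.6%). Higher were Cdkn1a (4.86, q = 1.04e-06), the kinases Sgk1 (2.86, q = 8.22e-06), Pdpk1, which phosphorylates AKT (0.58, q = 0.00769), and Rps6kb2, an S6 kinase (1.38, q = 0.00968), and also Trib1 (2.44, q = 0.00167), Tbc1d4 (1.82, q = 0.000443) and Ywhaz (0.44, q = 0.00869). Lower were Pik3r3 (-0.99, q = 0.000192), Sod2 (-1.01, q = 0.00521) and Sesn3, a sestrin (-0.90, q = 0.000943). Bcl2l11, a promoter of apoptosis, was at 0 in the 5 FD POMC libraries and averaged 0.540 TPM in FD AGRP neurons.

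The interaction term was called for 10 of the 102 list genes (9.80%, beside 6.71% of all genes), 6 with the higher change in AGRP neurons. These were Cdkn1a (6.76 ± 0.85 SE, q = 4.44e-06), Sgk1 (2.14 ± 0.57, q = 0.0202), Igfbp3 (6.66 ± 1.46, q = 0.00474), Gadd45a (3.36, q = 0.0146), Cpe (1.32, q = 0.0249) and Ywhaz (0.79, q = 0.00416). Igfbp3 was low in POMC libraries, at 5.78 ± 6.72 TPM (SD) in fed and 0.649 ± 0.808 TPM in FD mice, with at most 22 counts per FD library. The change was lower in AGRP neurons for Pik3ip1 (-2.61, q = 0.00555), Sesn1 (-1.19, q = 0.0473) and Sesn3 (-0.94, q = 0.0378).

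Genes with the most similar pattern were sought by the root mean square difference of z-scored log2 normalized CPM over the 21 libraries, among 8205 genes with a mean over 20 CPM in some group. This is a description with no test, and a small difference is a close match. Foxo1 had the closest neighbours of the 9, Ptprk (0.187), Stk32b (0.242) and Npy (0.242), where the median gene was at 1.41. Irs4 was nearest to Prune2 (0.310), Trpc6 (0.339) and Gfra2 (0.370), and Irs2 to Hid1 (0.394), Cited1 (0.416) and Sgk1 (0.424). Foxo4 was nearest to Med12 (0.337), Pgr15l (0.351) and Ghsr (0.369). Med12 lies on chromosome X, 13156 bases past the end of Foxo4, and was at 117 ± 18.9 TPM (SD) in fed AGRP and 18.5 ± 9.77 TPM in fed POMC neurons. Insr, Igf1r, Irs1, Akt1 and Foxo3 had no neighbour closer than 0.621. Among the members themselves Foxo1 and Foxo4 were the closest pair (0.522).

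On the mm10 build the genes lie at chr8:3150922-3279617 (Insr), chr7:67952859-68226780 (Igf1r), chr1:82233101-82291416 (Irs1), chr8:10986980-11008458 (Irs2), chrX:141710998-141725263 (Irs4), chr12:112653821-112674276 (Akt1), chr3:52268336-52353221 (Foxo1), chr10:42181841-42276755 (Foxo3) and chrX:101254528-101260873 (Foxo4). Counting was done without strand, so reads on exons shared with another gene cannot be assigned to one of them. Exons of Irs1, Irs2, Irs4 and Foxo1 overlap an annotated gene on the opposite strand in GENCODE M21, by 2822, 162, 383 and 674 bases of 9144, 6323, 6294 and 8665 exonic bases. Those partner genes had at most 0, 63, 120 and 2 counts in any library. As shared reads cannot be assigned, these counts do not show how many reads fell on the shared exons. The effect of the overlap on the levels was not tested. Insr, Igf1r, Akt1, Foxo3 and Foxo4 have no such overlap.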

How the data were processed

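RNA from hand-sorted cells was amplified (Ovation RNA-Seq System V2) and sequenced. Per the study's methods, the authors trimmed reads with cutadapt 1.7.1, set aside abundant sequences with Bowtie2 2.1.0, mapped the rest to mm10 with STAR 2.4.0i, and counted unique reads per gene, without strand, with HTSeq 0.6.1p1. Deposited counts are not normalized, and deposited TPM values were made by the authors per transcript length. Amplification and the unstranded count can both alter levels.

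Counts without the 92 spike-in and 5 summary entries (27.2 to 56.3% of reads were not on genes) were tested with edgeR 4.0.16 (quasi-likelihood, TMM) in 1 model of 4 groups, on genes over 1 CPM in 3 libraries or more. q values were adjusted over all tested genes. DESeq2 1.42.0, limma 3.58.1 (voom, and log2(TPM + 1)), spike-in scaling, blocks and left-out libraries were alternatives. The code was tested on simulated data. Shares were compared by exact two-sided permutation tests. Up to 12 list genes per contrast, those with the lowest q under 0.05, were named, apart from 1 gene that is not reported here. The members and lists were chosen with earlier results of these data known. Replicate numbers did not pair samples. Libraries differed beyond counting error (chi-square per degree of freedom of 39.2 or more within groups). A count of 0 allows up to 3 counts, for counting error only.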

Additional observations from a re-analysis of the deposited data

Results flagged for a closer look

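In 3 of 36 groups of libraries, each 1 gene in 1 group, 1 library stood apart from the rest of its group, where chance gives about 1 in 20. Irs4 was at 1593 TPM in fed AGRP replicate 1, with the next library at 1450 TPM. Akt1 was at 14.6 TPM in FD POMC replicate 1, with the next at 41.5 TPM. Foxo3 was at 23.5 TPM in fed POMC replicate 3, with the next at 9.82 TPM. The 2 pairwise contrasts of Foxo3 that use fed POMC libraries moved most on leaving that library out. The interaction term of Foxo3 uses it as well.

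The change on deprivation differed between AGRP and POMC neurons by the interaction test of edgeR for the genes that follow, given as the AGRP change less the POMC change on the log2 scale. Among the members these were Irs4 (0.79) and Foxo3 (-1.62). Among list genes the difference was positive for Cdkn1a (6.76), Igfbp3 (6.66), Gadd45a (3.36), Sgk1 (2.14), Cpe (1.32) and Ywhaz (0.79), and negative for Pik3ip1 (-2.61), Sesn1 (-1.19) and Sesn3 (-0.94). Igfbp3 had at most 22 counts in any FD POMC library.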

How the results depend on the processing

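The calls of Foxo1 and Irs2 in AGRP neurons and of Irs4 in POMC neurons kept their direction under the alternatives run and lost the threshold with spike-in scaling per cell. Under that scaling the counts called were 0 members and 1 list gene in AGRP FD vs fed, 0 members in POMC FD vs fed, 1 member and 0 list genes between fed cell types, 12 list genes between FD cell types, and 0 members and 2 list genes for the interaction. It reversed POMC Insr (-0.50), Igf1r (-0.91), Irs1 (-0.54), Foxo1 (-0.030) and Foxo3 (-0.11), AGRP vs POMC FD Insr (0.96), Igf1r (1.03), Irs1 (0.65) and Foxo3 (0.55), and the interaction of Insr (0.71) and Irs1 (0.16), where all genes shifted by a median of -1.11, 1.10 and 1.04. DESeq2 called 2 members and 7 list genes in POMC neurons. No share of all genes was taken for DESeq2 or for the spike-in scaling. The study's criteria (absolute log2 fold change over 1 and mean over 20 CPM in a group) left 0 members in POMC neurons, 3 members and 6 list genes between fed types, 11 list genes between FD types, and 1 member and 6 list genes for the interaction. Of all genes, these criteria called 0.266%, 4.02%, 8.11% and 4.55% in those contrasts, in that order. limma-voom reversed AGRP Insr (-0.0048), POMC Igf1r (-0.042) and Foxo4 (0.18) and the interaction of Foxo4 (-0.34). On log2(TPM + 1) AGRP Insr (-0.22), AGRP Irs4 (-0.15), POMC Irs2 (0.11) and the interaction of Foxo4 (-0.17) reversed. The age cohort and spike-in set blocks reversed POMC Irs2 (0.32 and 0.091) and Akt1 (0.17 and 0.11). None of the reversed values passed the test. Spike-in sets were unevenly spread over the POMC states and the FD cell types. Shifts under spike-in scaling there cannot be told apart from the set. The causes of the reversals were not tested. Replicate numbers paired no samples (correlations of deviations -0.18 to 0.12), and the replicate block gave -0.016 for AGRP Insr and 1.59 for AGRP Igf1r (q = 0.0796).

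Leaving out 1 library at a time gave 10 to 19 list genes in AGRP FD vs fed, 1 to 2 members and 0 to 1 list genes in POMC FD vs fed, and 6 to 11 list genes between fed types. Log2 fold changes ranged from -0.022 to 0.12 for AGRP Insr, -0.24 to 0.11 for POMC Akt1, -1.57 to 0.069 for POMC Foxo4, -0.11 to 0.50 for POMC Igf1r, -0.24 to 0.17 for POMC Irs2 and -0.27 to 1.36 for the interaction of Foxo4. Differences in shares, in percentage points, ranged from 27.7 to 35.7 (Foxo1, fed types), -1.84 to 8.40 (Foxo1, POMC), -0.40 to 0.48 (Irs2, fed types), 0.21 to 1.77 (Irs2, FD types), -10.0 to -6.35 (Insr, AGRP) and -0.49 to 3.45 (Insr, FD types). Low counts limit Igf1r in AGRP and Foxo4 in POMC neurons.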
